A study of Mus musculus with 8 samples.

Results

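The regulators described here are 10 genes that control lens identity and lens fiber differentiation: Pax6, Six3, Prox1, Pitx3, Maf, Foxe3, Mab21l1, Meis1, Meis2 and Hopx. Members were all probe sets that the platform annotation assigns to one of these genes alone, which gave 18 of the 22626 probe sets that are not array controls and 10 of 12393 genes. Lenses were dissected at embryonic day 15.5 as 4 samples from embryos carrying dominant-negative Brg1 (dnBrg1) and 4 from wild type embryos, all labelled as mixed background. dnBrg1 is a defective form of the SWI/SNF chromatin remodeling ATPase, made from the αA-crystallin promoter, which is active in postmitotic fiber cells. The paper names a single heterozygous founder line and wild type littermates, and states that the transgene was injected into FVB/N oocytes. The free-text descriptions add polysome-bound RNA for dnBrg1 replicates 1 and 2 and for all wild type samples, whereas total RNA alone is given for dnBrg1 replicates 3 and 4. The comparison asks whether transcripts of these regulators differ when Brg1 function is impaired in fibers. Levels are log2 intensities after robust multichip averaging (RMA). Each log2 fold change sets dnBrg1 over wild type and carries its standard error after ±. Transcripts were called at an adjusted p under 0.05, by limma and the Benjamini-Hochberg procedure across the array.

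The vertebrate lens forms from head surface ectoderm under the paired-domain and homeodomain protein Pax6, which acts with the homeodomain protein Six3 and with Meis1 and Meis2, TALE homeodomain proteins known to act on a Pax6 enhancer in the lens ectoderm. Pitx3, a bicoid-type homeodomain protein, and Foxe3, a forkhead protein, maintain the lens epithelium, and loss of either arrests the lens in mice. Prox1, a prospero-type homeodomain protein, and Maf (c-Maf), a basic leucine zipper protein, drive elongation of fiber cells and transcription of crystallin genes. Mab21l1 encodes a protein of the male-abnormal-21 family that is needed for lens formation, and Hopx a small homeodomain protein that does not bind DNA and partners with serum response factor in the heart. Foxe3 and Mab21l1 are therefore neither homeobox nor Maf genes.

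Sequence upstream of the start site is shown for Pitx3 and Six3, the genes with called decreases, and for both Pax6 start sites in the table, because Pax6 probe sets differed in response. Each sequence holds the 250 bases before a start site, from RefSeq on GRCm38.p6, read 5′ to 3′ on the gene's strand, and capitals mark matches to the Meis motif TGACAG on either strand.
Pitx3, minus strand, chr19:46148326-46148575: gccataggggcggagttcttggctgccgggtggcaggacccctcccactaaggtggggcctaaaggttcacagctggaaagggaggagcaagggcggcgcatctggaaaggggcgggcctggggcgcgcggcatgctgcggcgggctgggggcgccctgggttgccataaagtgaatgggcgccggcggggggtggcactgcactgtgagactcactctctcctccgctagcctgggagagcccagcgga
Six3, plus strand, chr17:85620584-85620833: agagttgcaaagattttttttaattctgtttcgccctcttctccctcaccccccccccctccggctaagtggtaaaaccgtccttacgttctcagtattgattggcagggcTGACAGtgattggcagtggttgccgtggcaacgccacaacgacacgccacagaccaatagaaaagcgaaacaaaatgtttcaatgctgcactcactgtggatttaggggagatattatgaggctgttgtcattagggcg
Pax6, first start site, plus strand, chr2:105668646-105668895: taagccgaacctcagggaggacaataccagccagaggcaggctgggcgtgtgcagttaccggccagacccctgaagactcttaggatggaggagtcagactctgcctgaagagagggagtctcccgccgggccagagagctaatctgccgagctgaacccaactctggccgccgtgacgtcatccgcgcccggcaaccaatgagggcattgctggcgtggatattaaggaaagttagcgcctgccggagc
Pax6, second start site, plus strand, chr2:105682213-105682462: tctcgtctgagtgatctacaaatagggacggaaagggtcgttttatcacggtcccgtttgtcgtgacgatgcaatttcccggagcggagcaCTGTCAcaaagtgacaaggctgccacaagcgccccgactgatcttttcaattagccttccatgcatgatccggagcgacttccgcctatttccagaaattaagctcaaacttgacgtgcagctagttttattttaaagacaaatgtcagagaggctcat
The Six3 window and that of the second Pax6 start site each held 1 Meis match, and the other windows shown held none. Of the 10 genes, 8 matched the table with 11 windows of 300 bases (250 before and 50 after the start), and 2 of these 11 held TGACAG, against 19.2% of all 32851 windows. The Maf half-site TGCTGA was in 1 of the 11, upstream of Hopx, against 19.5% of all. The Pitx motif TAATCC (7.06% of all), the homeodomain palindrome TAATTA (5.29%) and the forkhead motif GTAAACA (3.65%) were in none of them. Motifs were searched on both strands, and a match is a description of letters only.

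Of the 18 probe sets, 6 were called higher in dnBrg1 lenses and 3 lower, and 9 were not called. Together 50% were called, beside 40.8% of all probe sets (19.8% higher, 21% lower). The groups did not overlap in 9 of the 18, beside 40.1% of all probe sets. On the brightest probe set of each gene, Pax6, Prox1, Mab21l1 and Meis2 were higher, Pitx3 and Six3 were lower, and Maf, Foxe3, Meis1 and Hopx were not called, beside 17.5% higher and 23.3% lower among all genes. The median log2 fold change of the 18 was 0.26, beside -0.083 over all probe sets, and the median absolute value was 0.60, beside 0.34. The differences in these bulk samples cannot tell a change in the number of expressing cells from a change of RNA per cell.

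**Figure D1:**
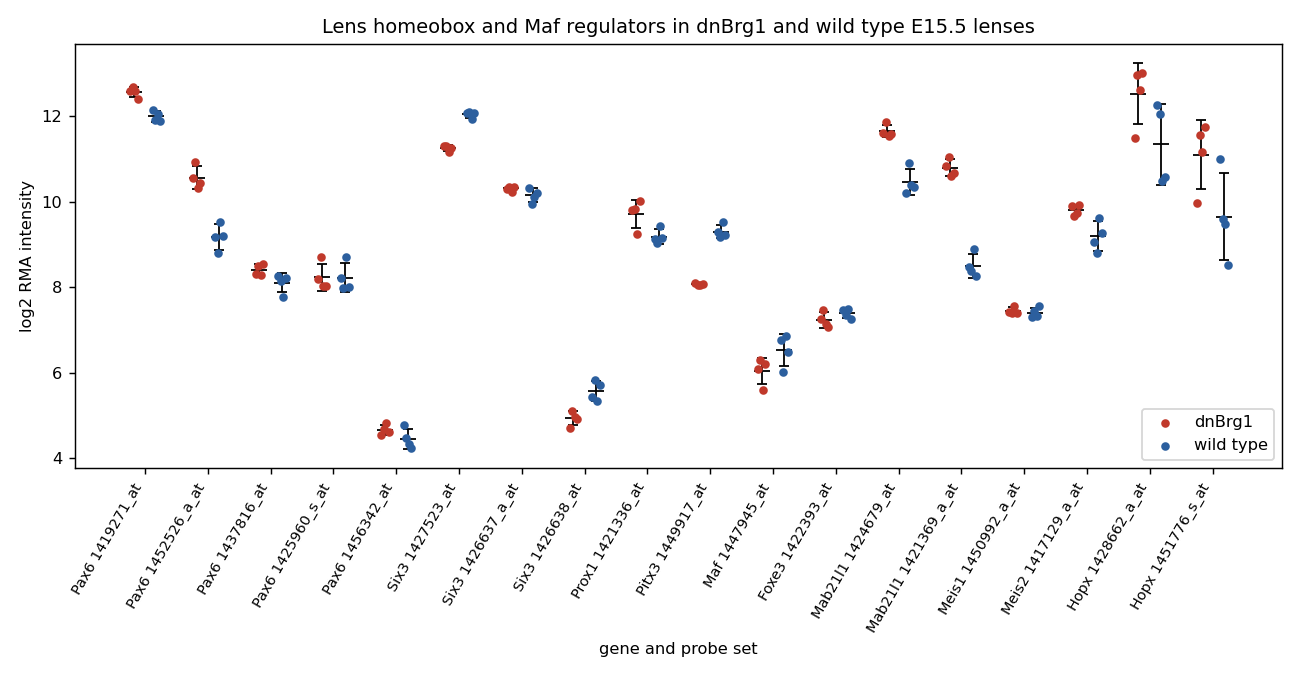
Log2 RMA intensity (vertical axis) of each of the 18 probe sets (horizontal axis) in dnBrg1 (red) and wild type (blue) lenses; each point is a sample, with mean and SD (n = 4) as bars. Pitx3 and 2 Six3 probe sets lie lower in dnBrg1 lenses without overlap, Mab21l1 lies higher with both probe sets, and Hopx has the widest spread within each group.

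Transcripts of Smarca4, which encodes Brg1, checked the labels. The dimmer of its 2 probe sets read between 9.65 and 9.88 in dnBrg1 lenses and between 6.79 and 7.87 in wild type lenses, whereas the brighter was not called (log2 fold change -0.24 ± 0.11, adjusted p = 0.116). Lens identity was plain on all arrays, with Cryaa at 14.31 in dnBrg1 and 14.27 in wild type lenses. The array controls for the ends of β-actin and Gapdh transcripts differed between the genotypes. The mean 3′ minus 5′ difference of both controls was 0.65, 0.65, 0.59 and 0.60 in dnBrg1 replicates 1 to 4 and 1.90, 2.66, 1.43 and 2.20 in wild type replicates 1 to 4 (two-sided exact permutation p = 0.029, the smallest that 70 assignments allow). Wild type replicate 3 was thus the wild type sample nearest to the dnBrg1 samples. With this difference as a covariate, called the control covariate below, 6.37% of all probe sets and 3 of the 18 were called. The covariate separates the genotypes and all 18 standard errors were larger with it, so transcripts not called with it may still differ. Transcripts typical of other tissues were uneven among dnBrg1 samples. The keratin gene Krt15 read 10.98 in dnBrg1 replicate 1 and 6.36 to 7.14 in the other dnBrg1 samples, and 5.80 to 6.28 in wild type. Dcn, a mesenchymal proteoglycan gene, read 8.63 and 9.05 in dnBrg1 replicates 1 and 4, 5.65 and 6.03 in replicates 2 and 3, and 5.15 to 6.41 in wild type. Wild type samples held mesenchymal transcripts too: 7 such markers summed to 1259 to 10200 in dnBrg1 and 2357 to 5174 in wild type samples. Skeletal muscle markers summed to 270 to 1798 in dnBrg1 and 218 to 406 in wild type samples. Most of these muscle markers lay above all wild type samples in dnBrg1 replicates 2 and 4. Replicates 2 and 3 are therefore not a set free of other tissue. Without dnBrg1 replicates 1 and 4, 6 of the 9 calls held. With the 2 dnBrg1 samples that remained, Meis2 was at 0.52, the dimmest Six3 probe set at -0.54 and Prox1 at 0.35, and these were not called.

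Pitx3, the gene disrupted in the aphakia mouse, was lower in dnBrg1 lenses by its single probe set 1449917_at. Its log2 intensity was 8.10, 8.06, 8.04 and 8.07 in dnBrg1 replicates 1 to 4, and 9.29, 9.18, 9.52 and 9.21 in wild type replicates 1 to 4. The groups were 1.08 apart at their nearest samples, and the dnBrg1 samples spanned 0.056. The log2 fold change was -1.24 ± 0.10 (adjusted p = 3.55e-05), a 2.35-fold lower level. Wild type replicate 3, nearest to the dnBrg1 samples in the array controls, had the highest Pitx3 value and so the largest distance from them. With the control covariate the decrease was -1.63 ± 0.19 (adjusted p = 0.0124), and no alternative removed the call. Foxe3, the forkhead gene of the epithelium that lies downstream of Pitx3 in mouse, did not pass. It read 7.25, 7.48, 7.14 and 7.06 in dnBrg1 and 7.47, 7.35, 7.50 and 7.26 in wild type replicates 1 to 4, with overlap between the groups (log2 fold change -0.16 ± 0.12, adjusted p = 0.298).

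Six3 was lower by 2 of its 3 probe sets. The paper, which listed probe set 1426638_at, described Six3 as unchanged on these arrays. By qRT-PCR on independent RNA pools it reported a minor decrease. With the brightest, 1427523_at, log2 intensity was 11.31, 11.31, 11.17 and 11.26 in dnBrg1 replicates 1 to 4, and 12.07, 12.09, 11.93 and 12.08 in wild type replicates 1 to 4. Every dnBrg1 sample lay below every wild type sample (log2 fold change -0.78 ± 0.092, adjusted p = 0.000188, 1.72-fold lower). The dimmest, 1426638_at, also fell by this test (4.93 ± 0.16 in dnBrg1 and 5.58 ± 0.23 in wild type lenses, SD, n = 4; -0.65 ± 0.14, adjusted p = 0.00526), but its dnBrg1 values, 4.72 to 5.12, lay around the top of 27 control probe sets for bacterial genes, whose means reached 4.88. The third, 1426637_a_at, read 10.23 to 10.36 in dnBrg1 and 9.95 to 10.33 in wild type lenses and was not called (0.16 ± 0.11, adjusted p = 0.264). With the control covariate the brightest was at -0.59 (adjusted p = 0.103) and the dimmest at -0.049 (adjusted p = 0.935).

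Pax6 was higher by 2 of 5 probe sets and lower by none. With the brightest, 1419271_at, log2 intensity was 12.60, 12.68, 12.60 and 12.42 in dnBrg1 replicates 1 to 4, and 12.15, 11.90, 12.04 and 11.88 in wild type replicates 1 to 4. All dnBrg1 samples lay above all wild type samples (0.58 ± 0.11, adjusted p = 0.00227, 1.49-fold). Probe set 1452526_a_at, of the type designed against several transcripts of one gene, showed the larger difference, with 10.55, 10.93, 10.32 and 10.44 in dnBrg1 and 9.17, 8.80, 9.53 and 9.19 in wild type replicates 1 to 4 (1.39 ± 0.18, adjusted p = 3e-04, 2.62-fold). The wild type sample with the highest value there was again replicate 3. Both calls were lost with the control covariate (0.37 and 0.64, adjusted p = 0.386 and 0.303). Probe set 1437816_at did not overlap between the groups, at 8.28 to 8.54 in dnBrg1 and 7.78 to 8.25 in wild type lenses, but did not pass (0.31 ± 0.13, adjusted p = 0.0917). Probe set 1425960_s_at had the same mean in both groups, 8.23 (log2 fold change 0.0042 ± 0.20), and 1456342_at, at 4.66 in dnBrg1 and 4.45 in wild type lenses, lay within the range of the bacterial controls.

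Pax6 and Six3 are also transcribed in the neural retina, whose markers were readable in these lenses. Of 10 retinal markers 8 were on the array, with 1 higher and 5 lower in dnBrg1 lenses, and their summed intensity was 9831 to 14140 in dnBrg1 and 12599 to 17420 in wild type samples. None of the 8 lay below the array median, and Atoh7, a gene of early retinal neurons, averaged 11.11 in dnBrg1 and 12.19 in wild type lenses. Of 6 lens epithelium markers, 2 of them members (Pax6 and Foxe3), 2 were higher and 2 lower, with sums of 23392 to 26402 in dnBrg1 and 25190 to 27716 in wild type samples. The part of these cells in the differences of Pax6, Six3 or any other member was not tested.

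Mab21l1 showed the increase of largest size among the 18 probe sets. The paper also reported it as higher in dnBrg1 lenses by qRT-PCR on independent RNA pools. With 1421369_a_at, log2 intensity was 10.84, 11.05, 10.61 and 10.68 in dnBrg1 replicates 1 to 4, and 8.47, 8.38, 8.89 and 8.26 in wild type replicates 1 to 4 (2.30 ± 0.16, adjusted p = 1.62e-05, 4.91-fold). With the brighter 1424679_at it was 11.62, 11.86, 11.55 and 11.58 in dnBrg1, and 10.20, 10.90, 10.40 and 10.34 in wild type (1.19 ± 0.16, adjusted p = 0.000352, 2.29-fold). Neither probe set overlapped between the groups, and the lowest dnBrg1 value lay 1.71 log2 units above the highest wild type value for the first and 0.65 for the second. Both kept the call with the control covariate (1.72 and 1.79, adjusted p = 0.0272 and 0.0232) and under all other alternatives.

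Prox1 and Maf, the regulators of fiber elongation, were less certain on these arrays. The paper reported Prox1 as higher in dnBrg1 lenses by qRT-PCR on independent RNA pools. Prox1 read 9.80, 9.82, 9.25 and 10.01 in dnBrg1 replicates 1 to 4, and 9.14, 9.03, 9.43 and 9.15 in wild type replicates 1 to 4. Dissenting values came from dnBrg1 replicate 3, the lowest of its group, and wild type replicate 3, the highest of its own, so that the groups overlapped. The log2 fold change was 0.53 ± 0.17 (adjusted p = 0.0314), and the call was lost without any 1 of replicates 1, 2 and 4 of either group (adjusted p up to 0.0875) and with the control covariate (0.13, adjusted p = 0.878). Maf read 6.09, 6.29, 5.59 and 6.19 in dnBrg1, and 6.76, 6.02, 6.85 and 6.49 in wild type replicates 1 to 4. Only wild type replicate 2 lay within the dnBrg1 range, and the difference missed the threshold (-0.49 ± 0.21, adjusted p = 0.0935) but was called without that sample (-0.66, adjusted p = 0.0206). With the control covariate the Maf value was -1.43 ± 0.40 (adjusted p = 0.0738). Macrophages express Maf too, and 6 macrophage markers summed to 1556 to 2936 in dnBrg1 and 3715 to 5040 in wild type samples, although 3 were called higher and only Csf1r, the brightest, lower. Prox1 also marks lymphatic endothelium, for which 3 markers (Lyve1, Pdpn and Flt4) summed to 4315 to 4525 in dnBrg1 and 5888 to 7576 in wild type samples. Pdpn, also listed for lens epithelium, carried most of that sum, and Lyve1 was not called (0.10, adjusted p = 0.524). The part of either cell type in these values was not tested.

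The TALE genes Meis1 and Meis2 were each read by 1 probe set, and Meis2 alone was called. Meis2 read 9.90, 9.68, 9.74 and 9.92 in dnBrg1 replicates 1 to 4, and 9.07, 8.80, 9.63 and 9.27 in wild type replicates 1 to 4. The groups did not overlap, but wild type replicate 3 came within 0.047 of the lowest dnBrg1 value (0.62 ± 0.17, adjusted p = 0.0165). With only dnBrg1 replicates 1 and 2 (0.59, adjusted p = 0.109) or only replicates 3 and 4 (0.64, adjusted p = 0.0825) the size was similar and the call was lost with fewer samples, whereas the value turned to -0.23 ± 0.27 with the control covariate (adjusted p = 0.655). Meis1 read 7.39 to 7.57 in dnBrg1 and 7.30 to 7.55 in wild type lenses (0.047 ± 0.10, adjusted p = 0.735), the smallest standard error but one among the 18. Whether the Meis1 and Meis2 changes differ from each other was not tested.

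**Figure D2:**
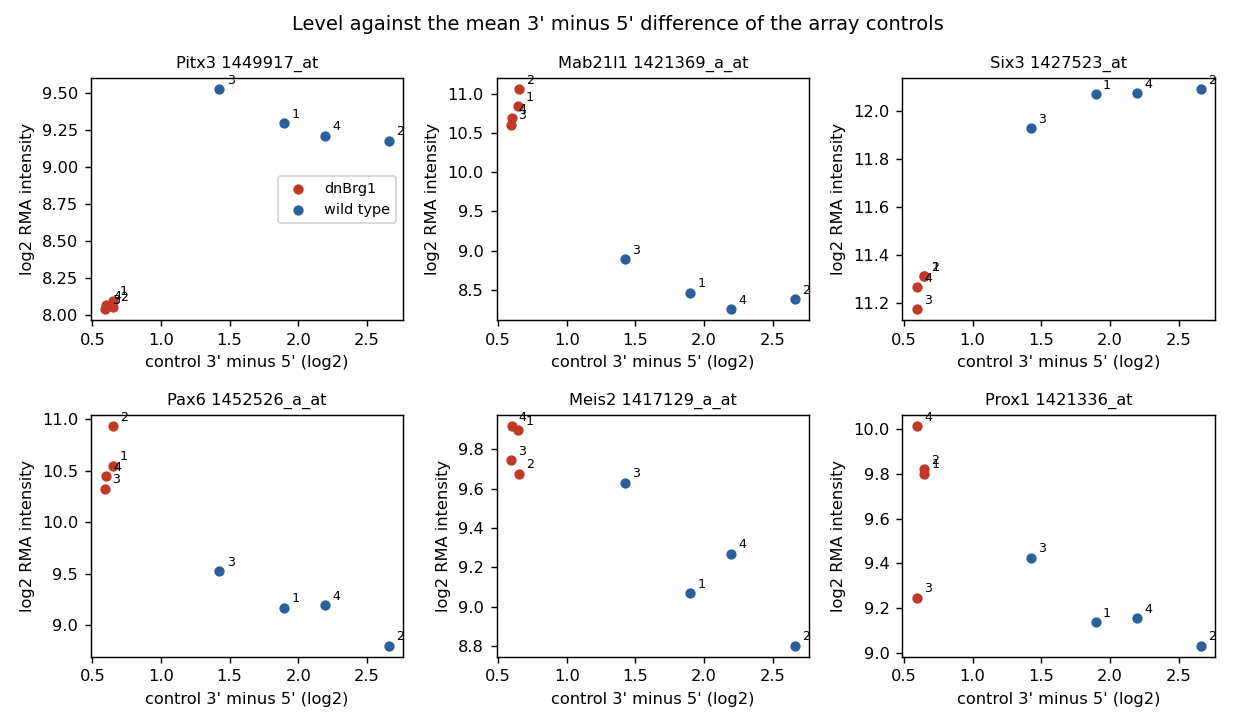
Log2 RMA intensity (vertical axes) of 6 probe sets against the mean 3′ minus 5′ difference of the β-actin and Gapdh array controls (horizontal axes, log2) in dnBrg1 (red) and wild type (blue) samples; digits are replicate numbers. Wild type replicate 3 lies toward the dnBrg1 samples for Meis2, Prox1, Mab21l1 1421369_a_at, Six3 1427523_at and Pax6 1452526_a_at, and away from them for Pitx3; Mab21l1 1424679_at is not plotted, and there replicate 3 minus the mean of the other wild type samples was -0.085.

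Hopx varied more within the genotypes than any other member. The paper reported it (as Hod) higher in dnBrg1 lenses by qRT-PCR on independent RNA pools. With 1428662_a_at, log2 intensity was 11.48, 12.97, 12.62 and 13.02 in dnBrg1 replicates 1 to 4, and 12.27, 12.05, 10.49 and 10.58 in wild type replicates 1 to 4. With 1451776_s_at it was 9.97, 11.56, 11.16 and 11.74 in dnBrg1, and 10.99, 9.59, 9.49 and 8.53 in wild type. dnBrg1 replicates 2, 3 and 4 were high with both probe sets, whereas dnBrg1 replicate 1 lay inside the wild type range. The values of 1.18 ± 0.48 (adjusted p = 0.0778) and 1.45 ± 0.52 (adjusted p = 0.0503) did not pass. Both passed without dnBrg1 replicate 1 (1.52 and 1.83, adjusted p = 0.0282 and 0.0183) or without wild type replicate 1 (1.49 and 1.90, adjusted p = 0.0382 and 0.00997), and 1451776_s_at also passed with all samples when only probe sets at or above the array median were tested (adjusted p = 0.0339). dnBrg1 replicate 1, lowest of its group in Hopx, was the sample with the high keratin reading, and 5 markers of corneal and surface ectoderm summed to 228 to 3296 in dnBrg1 and 218 to 411 in wild type samples; their part in the Hopx values was not tested.

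**Figure D3:**
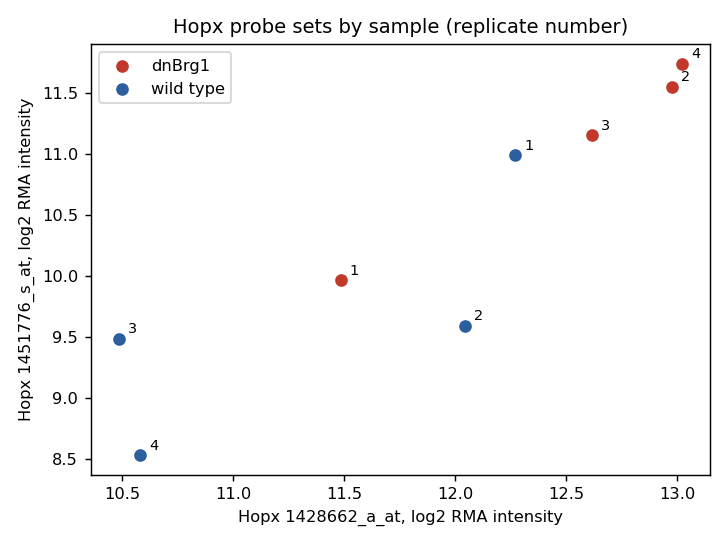
Log2 RMA intensity of Hopx by probe set 1428662_a_at (horizontal axis) and 1451776_s_at (vertical axis) in dnBrg1 (red) and wild type (blue) samples; digits are replicate numbers. dnBrg1 replicates 2, 3 and 4 lie above all wild type samples with both probe sets, and dnBrg1 replicate 1 lies among the wild type samples.

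Without the control covariate, probe sets of the same gene differed in response for 3 of the 4 members with more than 1. For each such gene the brightest probe set minus each other one was compared between genotypes within samples, and 5 of 8 differences were called, beside 50.1% of 7987 such differences over all genes. In Mab21l1 the brighter probe set exceeded the other by 0.86 ± 0.076 in dnBrg1 and 1.96 ± 0.44 in wild type lenses (SD, n = 4; change -1.10 ± 0.20, adjusted p = 0.00203). In Six3 the brightest exceeded 1426637_a_at by 0.95 ± 0.039 in dnBrg1 and 1.89 ± 0.17 in wild type lenses (-0.94 ± 0.12, adjusted p = 0.000234). In Pax6 the brightest exceeded 1452526_a_at by 2.01 ± 0.22 in dnBrg1 and 2.82 ± 0.27 in wild type lenses (-0.81 ± 0.17, adjusted p = 0.00357). The Pax6 differences to 1425960_s_at (0.57, adjusted p = 0.0277) and 1456342_at (0.37, adjusted p = 0.0374) were called in the other direction. Because 1456342_at lay within the range of the bacterial controls, its difference is no measure of a second Pax6 signal. These Pax6 values share the brightest probe set. The 5 calls were all lost with the control covariate. The change in Mab21l1 was then 0.073 (adjusted p = 0.881) and that of Pax6 to 1452526_a_at -0.28 (adjusted p = 0.687), whereas Six3 was still at -0.55 (adjusted p = 0.164) and Pax6 to 1425960_s_at at 1.17 (adjusted p = 0.109). The Hopx probe sets had a change of -0.28 (adjusted p = 0.467), with a difference of 1.42 ± 0.10 in dnBrg1 and 1.69 ± 0.67 in wild type lenses. With the control covariate, 8.24% of all differences and 1 of the 8 were called, that of Hopx (1.51, adjusted p = 0.0249).

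**Figure D4:**
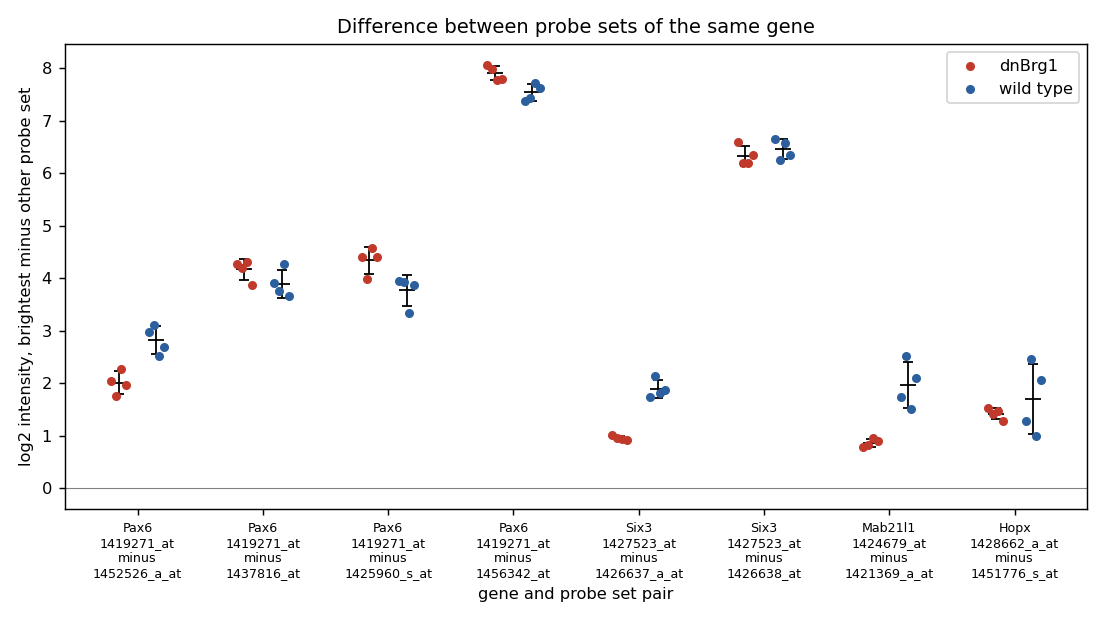
Log2 intensity of the brightest minus another probe set of the same gene (vertical axis) for 8 pairs in Pax6, Six3, Mab21l1 and Hopx (horizontal axis), in dnBrg1 (red) and wild type (blue) lenses; each point is a sample, with mean and SD (n = 4) as bars. For Mab21l1 and for the first pairs of Pax6 and Six3 every dnBrg1 sample falls under the wild type range.

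**Figure D5:**
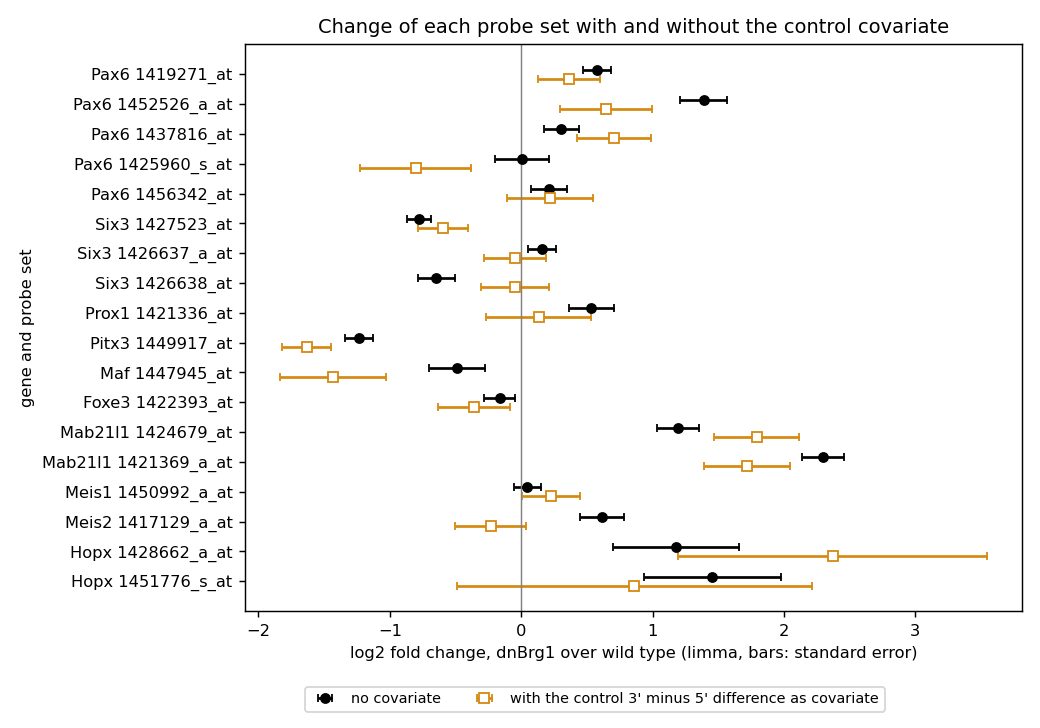
Log2 fold change, dnBrg1 over wild type (horizontal axis), of the 18 probe sets (vertical axis), without covariate (filled) and with the control 3′ minus 5′ difference as a covariate (open); bars are standard errors. Pitx3 and both Mab21l1 probe sets keep their direction and their calls with the covariate, whereas Meis2 lies on the other side of 0 with it.

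Relatives and partners of the regulators moved in both directions, each given on its brightest probe set. Of 14 Pax, Eya, Dach and Six3-related genes on the array, 2 rose and 4 fell, 42.9% beside 40.7% of all genes called. Eya1, a phosphatase coactivator of Six3-type proteins, rose by 0.53 ± 0.10 and Eya4 by 0.36, both below the array median, with Eya4 and Six2 within the range of the bacterial controls, while Dach2 (-0.77), Eya3 (-0.71), Dach1 (-0.46) and Six2 (-0.39) fell. With the control covariate Eya1 alone of this list was called (0.85, adjusted p = 0.0483). Eya4 was then at 0.64, Eya3 at -0.59, Dach1 at -0.28, Dach2 at -0.013 and Six2 at 0.0050. Of 12 TALE genes, which include the Pbx partners of Meis proteins, 4 rose and 2 fell, or 50%. The TALE repressor genes Tgif1 (1.45 ± 0.20) and Tgif2 (1.18 ± 0.18) rose, as did Pbx2 (0.76) and Pbx4 (0.50), and the Iroquois genes Irx5 (-1.99) and Irx3 (-1.67), both below the array median, fell. Tgif1 and Tgif2 were at 0.29 and 0.14 with the control covariate, and neither passed there, while Irx3 did (-1.94, adjusted p = 0.0458). Pbx2, whose groups overlapped, turned to -0.53 there, and Pbx4, below the array median, to -0.15. Irx5 was at -0.56, and none of these passed. The list medians were -0.061 and 0.22, beside -0.11 over all genes, and the second was 0.11, beside -0.071, when each gene's probe sets were averaged.

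Of 8 genes of the Maf family and its partners, 1 rose and 3 fell, 50% beside 40.7% of all genes. The median of -0.32 was -0.11, beside -0.071 over all genes, when each gene's probe sets were averaged. Mafg, a small Maf gene, fell (-0.80 ± 0.18, adjusted p = 0.00657). Bach1 (-0.54) and Bach2 (-0.46), which encode repressors that pair with small Maf proteins, fell as well, and Nfe2l2, which encodes the activator Nrf2, rose (0.48). Nfe2l2 was the one of these with a call under the control covariate (1.09, adjusted p = 0.0339). Of 8 other eye regulators (Pitx1, Otx2, Rax, Vsx1, Lhx2, Foxc1, Foxc2 and Mab21l2, the relative of Mab21l1) 0 rose and 2 fell, the retinal genes Rax (-1.05) and Lhx2 (-0.51), so that 25% were called. Neither was called with the control covariate.

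Other lens transcription factor genes were mostly lower. Of 13 on the array 10 fell and 1 rose, 84.6% beside 40.7% of all genes called, with a median of -0.65 (-0.44 with probe sets averaged). The decreases of largest size were those of Hsf2 (-2.21), a heat shock factor gene within the range of the bacterial controls in dnBrg1 lenses, Sox11 (-1.14), Etv5 (-1.12), an Ets factor gene that responds to FGF signaling, and Srf (-0.91), the partner of Hopx in the heart. Rarb, a retinoic acid receptor gene, rose (0.58). With the control covariate 2 of the 10 decreases were called, Sox11 (-2.39) and Etv5 (-2.67), and 0 genes were called higher. Hsf2 was then at -1.96 (adjusted p = 0.0526), Srf at -0.13 (adjusted p = 0.788) and Rarb at 0.098 (adjusted p = 0.907). Of 16 lens genes that the regulators are known to bind or control, 31.2% were called, beside 40.7% of all genes, with 1 higher and 4 lower. Bfsp1, the filensin gene, rose (1.54). The cell cycle inhibitor genes Cdkn1b (-0.89) and Cdkn1c (-0.30), which depend on Prox1 in mouse lens fibers, fell. The γ-crystallin genes Crygf (-0.52) and Crygd (-0.34) fell as well. None of these 5 was called with the control covariate. For Bfsp1 the paper listed the probe set used here and reported a rise in dnBrg1 lenses by qRT-PCR. For Cdkn1b the paper chose another probe set and reported a rise in dnBrg1 lenses by qRT-PCR, opposite to the value here. Most crystallin genes of this list were among the brightest transcripts (Crygf at 13.43 and Cryaa at 14.31 in dnBrg1 lenses), where differences may be read less fully.

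Among 6989 or 6990 other genes at or above the array median, those most like each regulator over the 8 samples were found by Pearson's r of log2 values, which here carries the genotype difference and is a description. Pitx3 was most like Amotl2 (r = 0.9997) and Mark2 (r = 0.995), Six3 like Hars (r = 0.999) and Repin1 (r = 0.997), Mab21l1 like Oat (r = 0.989) and Zfp280d (r = 0.986), Pax6 like Hebp1 and Tpt1 (both r = 0.984), and Meis2 like Thumpd1 and Tfpi (both r = 0.984). For these 5 regulators between 449 and 1122 genes had r over 0.9. For Hopx only 13 did, led by Ggct (r = 0.982) and Gpr19 (r = 0.972), and for Prox1 (Higd1b and Osgin2) and Maf (Wnt5a and Lamp2) 21 each. Foxe3 (Cyb5d1 and Cav2) and Meis1 (1110059E24Rik and St6gal1) had 3 and 2 such genes.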

How the data were processed

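RNA from 8 lens samples was amplified on the NuGEN platform from 50 ng of total RNA and hybridized to 1 Affymetrix mouse array per sample. The authors deposited linear intensities obtained by RMA (version not given in the sources used here), which subtracts background, aligns the arrays and gives 1 value per probe set. Shifts common to most transcripts are lost in this step. Array medians were 196.9 to 208.96, and precision is limited by how many arrays there are. Intensities were taken to log2 without a filter and fitted with limma 3.58.1 (lmFit, eBayes) in R 4.3.3, dnBrg1 minus wild type, over 22626 probe sets after 64 controls were set aside. Of these 20380 name 1 gene, 691 several and 1555 none in the platform annotation. A gene stands for its probe set with the highest mean. The model was tested on simulated data.

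The p-values reflect sample-to-sample spread. Biological replicates are stated for both groups. Members, lists and tests were chosen with earlier results of these data known. Every member probe set is named, together with up to 4 called genes of largest change per list. Eya4, Six2, Pbx2, Pbx4, Rarb and Cdkn1c were added to the names once values were known, to spell out small counts. Pitx1, Otx2, Vsx1, Foxc1, Foxc2 and Mab21l2 complete a list, and Cryaa, Krt15, Dcn, Atoh7, Csf1r, Lyve1, Pdpn and Flt4 were named as markers. The 2 genes most like each member are also named. Alternatives covered scaling, a constant of 16 added before log2, a filter on dim probe sets, trended robust eBayes, weighting of arrays, omission of each sample, the replicate block, the control covariate, subsets of dnBrg1 samples, an adjusted p under 0.01 and the methods' t-test. The fit with dnBrg1 replicates 2 and 3 only was added after the data were seen. Background correction could not be varied on RMA values.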

Additional observations from a re-analysis of the deposited data

Results flagged for a closer look

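One value stood apart within its group by Dixon's criterion for 4 samples, which was applied to 36 groups and which chance alone meets in about 1 of 20 groups. With Six3 probe set 1427523_at, wild type replicate 3 read 11.93 while the other wild type samples read 12.07 to 12.09, and its gap was 0.883 of the range of the group. It remained above all dnBrg1 samples.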

How the results depend on the processing

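Over 20 settings, 320 of 355 values of single member probe sets kept their direction and their side of the threshold, 19 lost the call, 6 gained it and 10 changed sign. Of all probe sets 9229 were called, against 1442 with the control covariate, 5640 with only dnBrg1 replicates 1 and 2, 5936 with only replicates 3 and 4, 5371 with only replicates 2 and 3 and 6031 at an adjusted p under 0.01. Among members 9 were called, against 3 with the control covariate. Of the differences between probe sets, 4001 over all genes and 5 in members were called, against 658 and 1 with the control covariate. Leaving out 1 sample gave 3 (without dnBrg1 replicate 1 or 4) to 6 calls in members. The Gapdh control difference of -0.93 ranged from -1.13 to -0.67 without 1 sample. Without any 1 dnBrg1 sample it stayed at -0.94 to -0.92 but did not pass (exact permutation p = 0.057). Fewer assignments were possible there.

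Among members, signs changed with the control covariate for Meis2 (-0.23), the Six3 probe set 1426637_a_at (-0.046), the Pax6 probe set 1425960_s_at (-0.80) and the differences between probe sets of Pax6 (1437816_at, -0.34), Mab21l1 (0.073) and Hopx (1.51). The near-zero Pax6 value for 1425960_s_at also turned with arrays centred (-0.032), with quantile normalization (-0.0092), with dnBrg1 replicates 3 and 4 only (-0.21) and over single samples left out (-0.15 to 0.17). The median of the lens genes that the regulators control was -0.058 and turned to 0.032 when each gene's probe sets were averaged, while those of the TALE, Maf and other lens factor lists shrank to 0.11, -0.11 and -0.44. The cause of these shifts was not tested.

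Correlations of same-numbered deviations ran from -0.19 to 0.16, so no pairing by replicate number was seen. Such values cannot exclude that same-numbered samples were littermates. With the replicate block 7963 probe sets, 8 member probe sets and 3 member differences between probe sets were called, with Prox1 being the probe set that lost its call (adjusted p = 0.0776) and the Pax6 differences to 1425960_s_at and 1456342_at the others (adjusted p = 0.0686 and 0.111). Probe sets near the bacterial controls give no firm change.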
